A study of Mus musculus with 9 samples.

Results

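The genes described here are the 7 genes Ckm, Ckmt2, Ckb, Slc6a8, Gatm, Ak1 and Ak3, taken by symbol from the 13539 genes listed for mouse hearts. They encode the creatine kinases, the creatine transporter, an enzyme of creatine synthesis and a pair of adenylate kinases. All 7 were found, each in a single row. Hearts of 12-week-old male C57BL/6JOlaHsd mice fell into 3 groups of 3 libraries. The first held OMA1 knockout mice that received isoproterenol for 7 days from minipumps delivering 10 mg/kg/day ("treated knockout"). The second held wild-type mice given the same treatment ("treated wild-type"). The third held OMA1 knockout mice labelled as non-treated ("untreated knockout"), for which no sham pump is mentioned. Both knockout groups lack OMA1, an enzyme of the inner mitochondrial membrane that cuts proteins when mitochondria are stressed. How the allele was made is not given in the sources used here. Isoproterenol is an agonist of β-adrenergic receptors that raises heart rate and force. No untreated wild-type group was analysed here, so the effect of genotype on the response to the drug could not be tested.

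Creatine kinase moves the high-energy phosphate of ATP onto creatine and back, and phosphocreatine buffers ATP where it is used. In heart muscle the mitochondrial isoform sits between the mitochondrial membranes beside the ADP/ATP carrier, and the cytosolic M isoform sits at the myofibrils and the sarcoplasmic reticulum. Adenylate kinase interconverts ATP, ADP and AMP, and so sets the AMP signal that rises when ATP falls. Cardiac muscle makes little creatine itself and imports it through the transporter Slc6a8.

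Levels are the authors' RSEM expected counts normalized for library size, and differences are on the log2(value + 1) scale with the standard error (SE) of a limma fit over all 9 libraries. A difference was called at a Benjamini-Hochberg adjusted p under 0.05 over the 8543 genes tested, those that reached 10 in 3 libraries or more. Of the 7 genes 6 passed this minimum, and Gatm did not. Libraries held 6933879 to 12187701 reads, with 9387140 to 12187701 in treated knockout, 8617556 to 10809118 in treated wild-type and 6933879 to 8146510 in untreated knockout hearts. The share of the signal from mitochondrial DNA was 38.2% to 42.5% in treated knockout, 36.7% to 37.3% in treated wild-type and 33.9% to 34.6% in untreated knockout hearts, and treated knockout replicate 2 had the highest share. The Oma1 transcript stood at 6.24 ± 0.502 in treated knockout, 19.9 ± 2.16 in treated wild-type and 7.42 ± 1.46 in untreated knockout hearts (SD, n = 3 each), in the direction of the labels. All 10 general cardiomyocyte markers were present, at summed levels of 44448 to 47217, 40715 to 47148 and 49701 to 53449 in these groups. Markers of atrial myocytes summed to 107 to 133 in treated knockout and 78.5 to 861 in treated wild-type hearts, and to 1157 to 2557 in untreated knockout hearts. In treated wild-type hearts the spread of this sum lay mainly in the marker Nppa, at 327 ± 447 (SD, n = 3). Skeletal muscle, which also expresses Ckm, left at most 3.38 over its 10 markers, of which 2 were listed.

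Ckm and Ckmt2, the creatine kinases of the adult heart muscle cell, passed the test in none of the 3 comparisons. Ckb was higher in both treated groups than in untreated knockout hearts, by 1.62-fold (log2 0.70 ± 0.07, SE) in knockout and 1.44-fold (0.52 ± 0.07) in wild-type hearts, with 3 libraries per group. Ak1 and Ak3 were lower in both treated groups than in untreated knockout hearts, though the call of Ak3 in treated wild-type hearts was lost when most single libraries were left out. Treated knockout hearts also held less Ak3 than treated wild-type hearts (-0.33 ± 0.08), and less Slc6a8 by a call that did not hold under several alternatives (-0.25 ± 0.08). Because these are libraries of whole tissue, fewer cells of a type and less RNA per cell cannot be told apart.

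**Figure D1:**
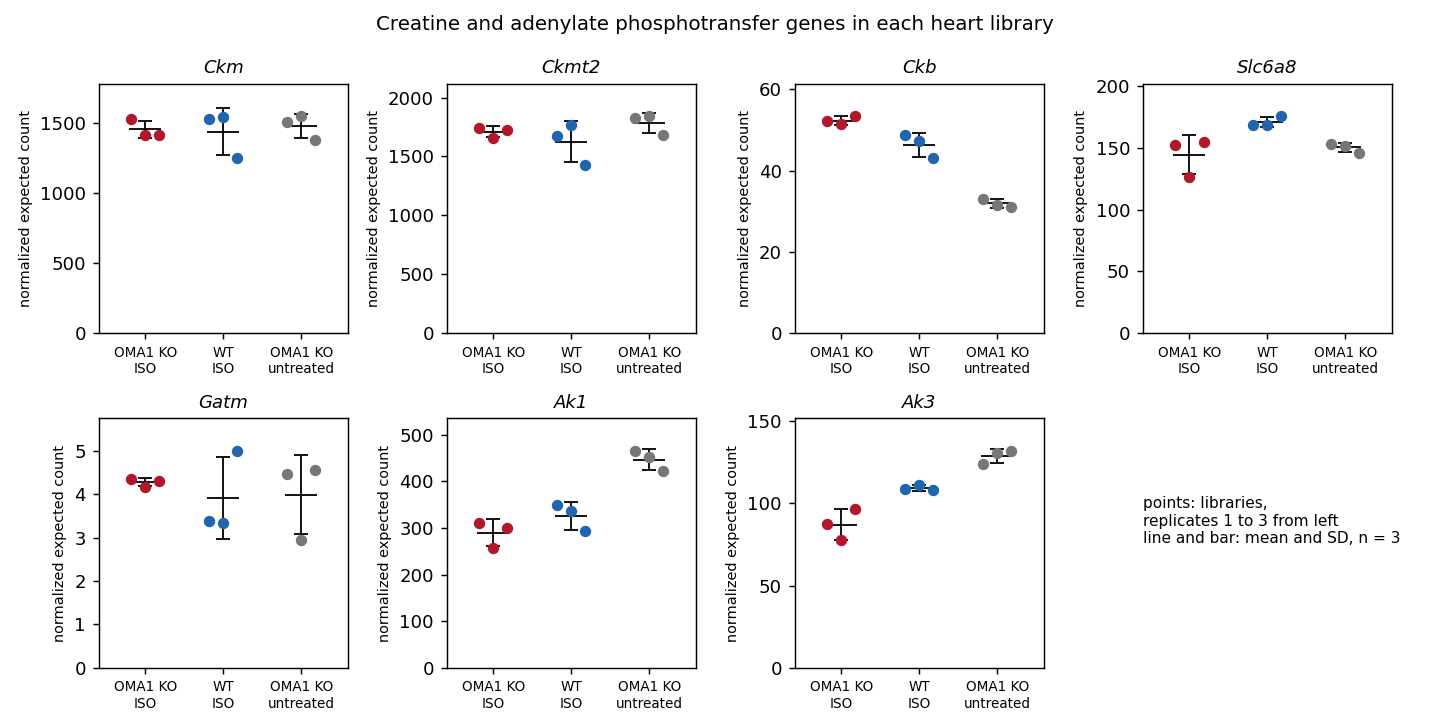
Normalized expected count of each of the 7 genes in each heart library, from a baseline of 0 (ISO, isoproterenol; points, libraries; line and bar, mean and SD, n = 3). Ckb lies at 51.4 to 53.4, 43.1 to 48.8 and 31.1 to 33.1 in the groups from left to right, while Ckm and Ckmt2 overlap in every pair of groups.

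The windows of 250 bases before the start sites of 5 of the genes are shown. They set the genes that passed no test (Ckm and Ckmt2) beside genes with a call (Ckb, Ak1 and Ak3). Slc6a8 also had a call, but no window was listed for it in the RefSeq table used here. The window of Gatm, which was not tested, is not printed. The printed windows come from RefSeq on GRCm38.p6, are read 5′ to 3′ on the strand of the gene and end at the last base before the start. The positions are chr7:19410844-19411093 on the plus strand for Ckm, chr13:91876886-91877135 on the minus strand for Ckmt2 and chr12:111672339-111672588 on the minus strand for Ckb. The Ckm window lies inside the gene as annotated (19404776 to 19422841), so it does not precede the first base of that gene. For Ak1, which has 4 listed starts, the window of the most upstream start is given (chr2:32621508-32621757, plus strand). That of Ak3 lies at chr19:29047962-29048211 on the minus strand. Capitals mark any match, on either strand, to the TATA box (TATAAA), the CCAAT box (CCAAT), the core of the cAMP response element (TGACG) or the nuclear receptor motif AAGGTCA.
Ckm: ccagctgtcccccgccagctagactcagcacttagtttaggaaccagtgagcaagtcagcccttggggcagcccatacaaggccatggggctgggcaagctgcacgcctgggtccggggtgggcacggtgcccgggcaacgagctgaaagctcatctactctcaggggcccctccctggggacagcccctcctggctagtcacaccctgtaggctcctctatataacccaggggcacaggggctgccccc
Ckmt2: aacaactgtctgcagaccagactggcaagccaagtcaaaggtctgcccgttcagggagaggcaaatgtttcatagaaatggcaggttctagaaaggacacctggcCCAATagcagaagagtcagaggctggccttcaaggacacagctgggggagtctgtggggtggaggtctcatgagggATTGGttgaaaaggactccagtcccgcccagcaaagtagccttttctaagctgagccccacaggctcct
Ckb: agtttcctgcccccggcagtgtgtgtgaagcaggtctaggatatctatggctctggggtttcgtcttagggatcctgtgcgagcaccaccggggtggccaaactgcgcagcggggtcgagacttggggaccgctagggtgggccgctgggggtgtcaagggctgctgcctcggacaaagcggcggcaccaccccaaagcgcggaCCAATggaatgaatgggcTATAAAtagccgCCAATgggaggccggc
Ak1: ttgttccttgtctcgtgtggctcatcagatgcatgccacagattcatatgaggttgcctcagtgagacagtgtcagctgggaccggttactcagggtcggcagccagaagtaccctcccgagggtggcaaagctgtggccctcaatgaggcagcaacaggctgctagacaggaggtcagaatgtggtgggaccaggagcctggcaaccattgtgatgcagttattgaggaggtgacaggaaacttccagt
Ak3: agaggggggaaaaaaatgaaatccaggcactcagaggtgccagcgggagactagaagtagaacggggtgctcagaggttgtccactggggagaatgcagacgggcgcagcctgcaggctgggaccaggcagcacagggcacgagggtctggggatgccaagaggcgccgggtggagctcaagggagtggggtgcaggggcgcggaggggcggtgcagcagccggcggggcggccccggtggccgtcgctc
Of these windows only that of Ckb held TATAAA, beginning 28 bases before the start, between CCAAT matches at 46 and 16 bases before it. The window of Ckmt2 held CCAAT at 145 bases and, on the opposite strand, at 69 bases before its start. The printed windows of Ckm, Ak1 and Ak3 held none of the 4 motifs as exact letters, and those of Ckb and Ckmt2 held no TGACG or AAGGTCA. Near its end the Ckm window holds the related letters tatataa, which the exact search for TATAAA does not count. Whether Ckm has a TATA box was therefore not settled by this search. Another of the 4 Ak1 windows, at chr2:32628140-32628389 and not printed, held AAGGTCA beginning 90 bases before its start. Among 32851 windows of the same length in the RefSeq table, 12.4% held TATAAA, 33.85% CCAAT, 17.8% TGACG and 4.08% AAGGTCA. The E-box CANNTG, present in 66.2% of windows and not capitalised, occurred in those of Ckm, Ckmt2 and Ak1, and the GC box GGGCGG (32.7%) in those of Ckmt2 and Ak3. A match of letters is a description and not a binding site.

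Ckm encodes the M subunit of cytosolic creatine kinase (ENSMUSG00000030399, chromosome 7, 19404776 to 19422841 on GRCm38). It stood at 1525, 1414 and 1415 in treated knockout hearts, at 1526, 1537 and 1247 in treated wild-type hearts and at 1505, 1546 and 1379.7 in untreated knockout hearts. The groups overlapped, and treated wild-type replicate 3 was the lowest library. Its log2 difference was 0.02 ± 0.09 between treated knockout and treated wild-type hearts (adjusted p = 0.88) and -0.02 ± 0.09 between treated and untreated knockout hearts (adjusted p = 0.83). Both differences were small against their errors, and neither sign was stable. The value between the treated groups turned to -0.02 without treated knockout replicate 1 and to -0.08 without treated wild-type replicate 3. That between the knockout groups was 0.17 with cyclic loess scaling (adjusted p = 0.017).

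Ckmt2 encodes the sarcomeric mitochondrial creatine kinase (ENSMUSG00000021622, chromosome 13, 91853387 to 91876885). It stood at 1743, 1658 and 1729 in treated knockout hearts, at 1678, 1769.6 and 1431 in treated wild-type hearts and at 1823, 1843 and 1684 in untreated knockout hearts. As with Ckm, the groups overlapped and treated wild-type replicate 3 was lowest. Its log2 difference was 0.08 ± 0.08 in treated knockout against treated wild-type (adjusted p = 0.51) and -0.06 ± 0.08 in treated against untreated knockout hearts (adjusted p = 0.58). With cyclic loess scaling these values were 0.15 (adjusted p = 0.049) and 0.13 (adjusted p = 0.048). With treated wild-type replicate 3 left out, the value between the treated groups was -0.01. Ckmt2 stood at 114 to 122 per 100 of Ckm in treated knockout, at 110.0 to 115 in treated wild-type and at 119 to 122 in untreated knockout hearts. An exact two-sided permutation test on the log2 ratio gave p = 0.30 for treated knockout against treated wild-type hearts and p = 0.40 for the knockout groups. Treated wild-type and untreated knockout hearts did not overlap in this ratio, and the exact permutation test gave p = 0.10, the smallest p that 3 libraries against 3 allow (adjusted p = 0.30 over the 9 ratio comparisons made).

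Ckb encodes the B subunit, the brain-type creatine kinase (ENSMUSG00000001270, chromosome 12, 111669361 to 111672338), which as background is prominent in the fetal heart. It stood at 52.1, 51.4 and 53.4 in treated knockout hearts, at 48.8, 47.2 and 43.1 in treated wild-type hearts and at 33.1, 31.5 and 31.1 in untreated knockout hearts. No library of any group overlapped another group, and all 6 treated libraries lay above the 3 untreated ones. Between the knockout groups the log2 difference was 0.70 ± 0.07 (adjusted p = 8.07e-06). In treated wild-type against untreated knockout hearts it was 0.52 ± 0.07 (adjusted p = 0.00016), where genotype and treatment both differed and cannot be told apart. Both calls held under each of 24 alternative analyses, with values of 0.57 to 0.80 and 0.43 to 0.72. Treated knockout against treated wild-type hearts gave 0.17 ± 0.07, which did not pass (adjusted p = 0.091). It passed with scaling to the sum of nuclear genes (0.22, adjusted p = 0.027) and with cyclic loess scaling (0.21, adjusted p = 0.034), and its sign turned when transcript length and GC content were corrected for (-0.10, adjusted p = 0.35). Of the 50-base stretches of the Ckb transcript 21.9% also occur in transcripts of 3 other annotated genes, among them the pseudogenes Ckb-ps1 and Ckb-ps2, so reads can be shared with these. The corresponding share was 11.5% for Ckm, with an antisense gene, 11.1% for Ak3, with Cdc37l1 and 1 other gene, 2.51% for Ckmt2, and 0% for Slc6a8, Gatm and Ak1.

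Relative to Ckm, Ckb stood at 3.42, 3.63 and 3.77 per 100 in treated knockout hearts, at 3.20, 3.07 and 3.45 in treated wild-type hearts and at 2.20, 2.04 and 2.25 in untreated knockout hearts. The treated libraries all lay above the untreated ones, and the treated groups overlapped. On the log2 scale the ratio differed by 0.74 between the knockout groups and by 0.58 between treated wild-type and untreated knockout hearts (p = 0.10 for each, exact two-sided permutation test, adjusted p = 0.30 over 9 ratio comparisons). The treated groups differed in it by 0.16 (exact permutation p = 0.20). A ratio within a library does not depend on a single scaling factor applied to all genes of that library. Cyclic loess scaling and the correction for transcript length and GC content are not of that kind, and the ratio was not computed under them. With that correction the treated groups differed by -0.0957 in Ckb and 0.0082 in Ckm on the log2 scale, against 0.17 and 0.02 as reported.

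**Figure D2:**
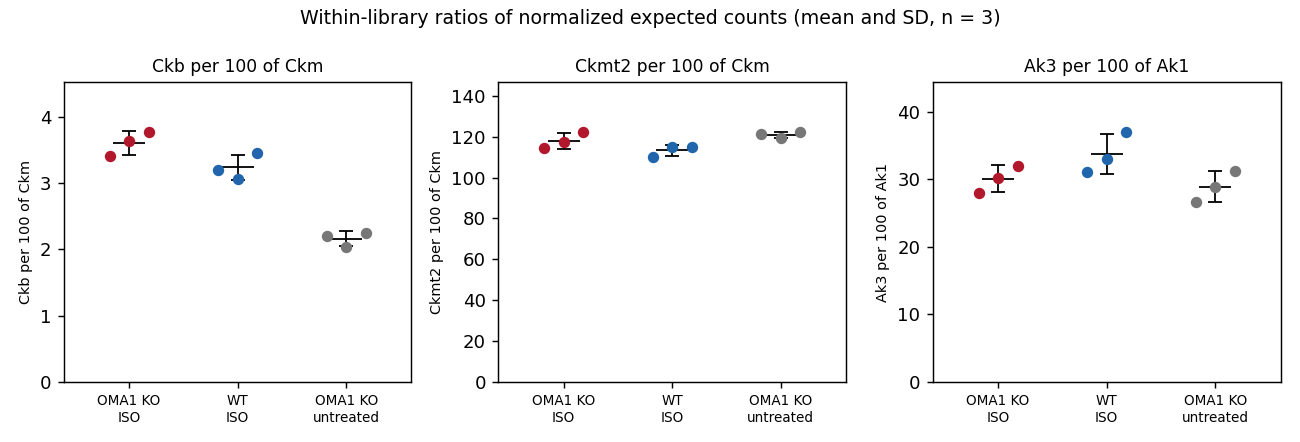
Ckb per 100 of Ckm, Ckmt2 per 100 of Ckm and Ak3 per 100 of Ak1 in each library (ISO, isoproterenol; points, libraries; line and bar, mean and SD, n = 3; axes start at 0). The Ckb ratio is 3.07 to 3.77 in the 6 treated libraries and 2.04 to 2.25 in the untreated ones.

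Against untreated knockout hearts, endothelial markers and most tested fibroblast markers moved in the same direction as Ckb. The endothelial sum was 1822.5 to 2223 in treated knockout, 1412 to 1556 in treated wild-type and 995 to 1101 in untreated knockout hearts. All 8 endothelial markers were called higher in treated than in untreated knockout hearts, where 23.9% of all tested genes were. Fibroblast markers summed to 2042 to 2093, 1786 to 2399 and 1762 to 1840.4 in these groups, and 5 of the 7 tested were called higher and 0 lower in treated than in untreated knockout hearts. In treated wild-type against untreated knockout hearts 6 were higher and 1 lower (background 16.4% and 16.9%). Between the treated groups 7 of 8 endothelial and 2 of 7 tested fibroblast markers were called higher, and 0 of either list lower. Background shares there were 12% higher and 15.9% lower. The median log2 differences there were 0.41 for the endothelial and -0.06 for the fibroblast markers. Smooth muscle markers summed to 327 to 368, 328 to 405 and 231 to 273, with 3 of the 4 tested called higher in treated than in untreated knockout hearts. Atrial and adipocyte markers went the other way, with 6 of 6 atrial markers called lower in treated than in untreated knockout hearts (background 27.4%). The adipocyte markers, 5 of 6 listed and none tested, summed to at most 0.725 in treated knockout and 0.288 in treated wild-type hearts, against 20.5 to 80.1 in untreated knockout hearts. Within the treated wild-type group the atrial sum reached 861 in replicate 3, whose Ckb value of 43.1 was the lowest of the treated libraries. The spread of that sum lay mainly in Nppa, at 327 ± 447 in the group (SD, n = 3). The other atrial markers there were Tbx5 at 21.8 ± 3.82, Myl4 at 1.39 ± 0.336, Myl7 at 0.233 ± 0.0415, and Sln and Bmp10 at 0. The part of these cell types in the result was not tested.

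Slc6a8 encodes the creatine transporter of the plasma membrane (ENSMUSG00000019558, chromosome X, 73673150 to 73682502). It stood at 152, 126 and 155 in treated knockout hearts, at 169, 169 and 176 in treated wild-type hearts and at 153, 152 and 146 in untreated knockout hearts. All treated wild-type libraries lay above those of the other groups, and treated knockout replicate 2 was lowest. Treated knockout against treated wild-type hearts gave a log2 difference of -0.25 ± 0.08, or 0.842-fold (adjusted p = 0.035). This call was lost without treated knockout replicate 2 (-0.15, adjusted p = 0.11). It was also lost without 1 of the treated wild-type libraries (adjusted p = 0.069, 0.069 and 0.061 for replicates 1 to 3) or untreated knockout replicate 1 or 2 (adjusted p = 0.051 and 0.052). Cyclic loess (-0.16, adjusted p = 0.097) and nuclear scaling (-0.20, adjusted p = 0.064) ended it too. Treated knockout replicate 2 was also the library with the highest mitochondrial share, 42.5%, and its part in the result was not tested. Between the knockout groups the log2 difference was -0.06 ± 0.08 (adjusted p = 0.53). Treated wild-type stood above untreated knockout hearts by 0.19 ± 0.08 (adjusted p = 0.093), which passed without treated knockout replicate 2 (adjusted p = 0.022).

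Gatm encodes the amidinotransferase of the first step of creatine synthesis, a reaction known mainly from kidney and pancreas (ENSMUSG00000027199, chromosome 2, 122594467 to 122611303). It was barely detected, at 4.35, 4.17 and 4.30 in treated knockout hearts, at 3.39, 3.34 and 4.998 in treated wild-type hearts and at 4.47, 2.95 and 4.56 in untreated knockout hearts. These values rest on 24 to 53 reads per library. The groups overlapped, and a difference was not detectable at this depth. Fitted without the minimum, treated knockout differed from treated wild-type hearts by 0.12 ± 0.18 and from untreated knockout hearts by 0.10 ± 0.18 on the log2 scale (adjusted p = 0.69 for each). Gamt, the methyltransferase that completes the synthesis, was lower still, at 2.96 ± 0.321 in treated knockout, 2.13 ± 0.244 in treated wild-type and 2.10 ± 0.838 in untreated knockout hearts (SD, n = 3 each).

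Ak1 encodes the cytosolic adenylate kinase of muscle (ENSMUSG00000026817, chromosome 2, 32621758 to 32635058). It stood at 311, 257 and 301 in treated knockout hearts, at 349, 337 and 293 in treated wild-type hearts and at 466, 452 and 422 in untreated knockout hearts. The untreated libraries all lay above the treated ones, and the treated groups overlapped. Ak1 was lower by a log2 difference of -0.62 ± 0.09 in treated than in untreated knockout hearts, or 0.648-fold (adjusted p = 7.97e-05). In treated wild-type against untreated knockout hearts the value was -0.45 ± 0.09 (adjusted p = 0.0018). Both calls held under each of 24 alternatives, the first with values of -0.68 to -0.43. Treated knockout against treated wild-type hearts gave -0.17 ± 0.09 (adjusted p = 0.17). With treated wild-type replicate 3 left out this was -0.25 and passed (adjusted p = 0.042).

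Ak3 encodes the adenylate kinase of the mitochondrial matrix, which uses GTP to phosphorylate AMP (ENSMUSG00000024782, chromosome 19, 29020833 to 29047961). It stood at 87.2, 77.4 and 96.4 in treated knockout hearts, at 109, 111 and 108 in treated wild-type hearts and at 124, 130.5 and 132 in untreated knockout hearts. The groups did not overlap, with treated knockout hearts lowest and untreated knockout hearts highest. Ak3 was the gene of this set with a call in all 3 comparisons. The log2 difference was -0.33 ± 0.08 between treated knockout and treated wild-type hearts (0.795-fold, adjusted p = 0.0094) and -0.56 ± 0.08 between treated and untreated knockout hearts (0.676-fold, adjusted p = 7.50e-05). Both held under each of 24 alternatives, with values of -0.41 to -0.25 and -0.64 to -0.46. Treated wild-type against untreated knockout hearts gave -0.23 ± 0.08 (adjusted p = 0.037). Leaving out treated knockout replicate 1, or 1 of the 6 libraries compared, ended that call (adjusted p of 0.052 to 0.11), as did nuclear scaling (-0.17, adjusted p = 0.089).

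The Ak3 gene shares 5849 bases with Cdc37l1, a protein-coding gene on the opposite strand, and whether reads were counted by strand is not given in the sources used here. Cdc37l1 stood at 56.4 ± 3.58 in treated knockout, 69.8 ± 6.36 in treated wild-type and 64.2 ± 1.31 in untreated knockout hearts (SD, n = 3 each). It differed by -0.30 ± 0.08 on the log2 scale in treated knockout against treated wild-type (adjusted p = 0.016) and by -0.19 ± 0.08 in treated against untreated knockout hearts (adjusted p = 0.070). Ak3 per 100 of Ak1 ranged from 27.99 to 32.0 in treated knockout, from 31.1 to 36.9 in treated wild-type and from 26.6 to 31.3 in untreated knockout hearts, and all groups overlapped. The log2 ratio differed by -0.16 in treated knockout against treated wild-type (exact two-sided permutation p = 0.20) and by 0.06 in treated against untreated knockout hearts (exact permutation p = 0.60).

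Ak1 and Ak3 were highest in untreated knockout hearts, where the mitochondrial share of the signal was lowest, at 33.9% to 34.6%. Among the treated libraries Ak1 fell as that share rose, except in treated wild-type replicate 3, which had the lowest share (36.7%) and Ak1 at 293. Ak1 was at 349 and 337 in treated wild-type replicates 1 and 2 (37.0% and 37.3%). In treated knockout replicates 1, 3 and 2 it was at 311, 301 and 257 (38.2%, 39.6% and 42.5%). The atrial and adipocyte sums were also highest in untreated knockout hearts, and the endothelial sum was lowest. The summed cardiomyocyte markers were highest there too, led by Myh6. In treated against untreated knockout hearts 1 of the 10 was called higher (background 23.9%), 4 lower (27.4%) and 5 not called. The part of these in the lower Ak1 and Ak3 of treated hearts was not tested.

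**Figure D3:**
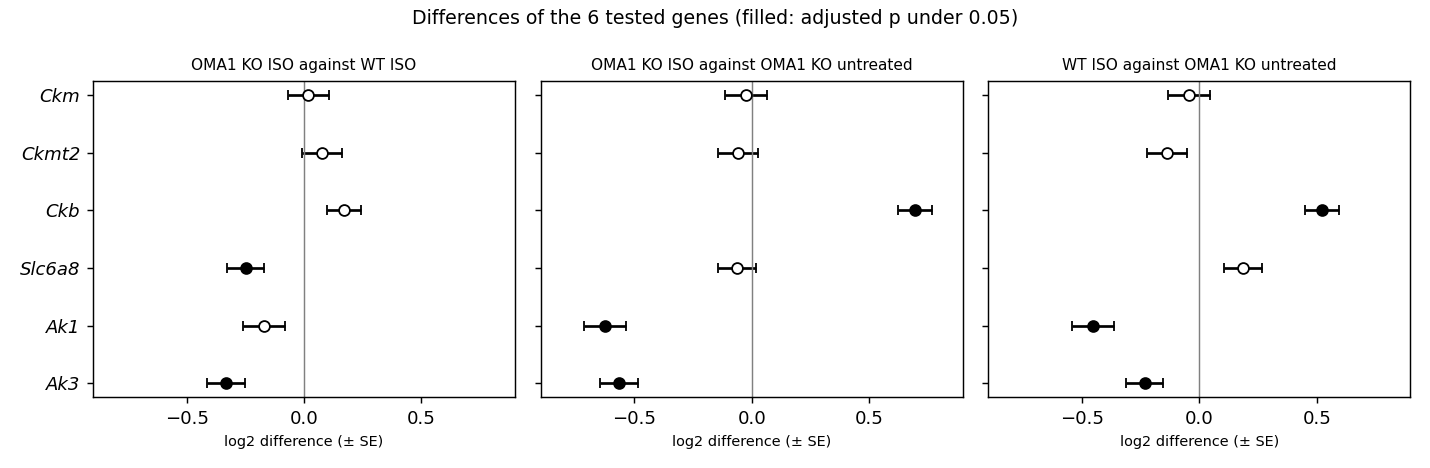
Log2 difference with its SE for the 6 tested genes in the 3 comparisons (ISO, isoproterenol; filled points, limma adjusted p under 0.05). Ckb reaches 0.70 and 0.52 against untreated knockout hearts, Ak1 -0.62 and -0.45, and only Slc6a8 and Ak3 are filled between the treated groups.

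Set against all genes, the 6 tested members are too few to tell their shares of calls from the background. Of the 6 tested members 2 were called between treated knockout and treated wild-type hearts, where 27.8% of all tested genes were. None of them was higher (background 12%), Ckb being at an unadjusted p of 0.033 by limma and no member higher by edgeR or DESeq2, and 2 were lower (15.9%). The median log2 difference was -0.08 for the members and -0.01 for all genes. Without treated knockout replicate 2 the number of genes called in this comparison was 1342, against 2379 as reported. Treated against untreated knockout hearts had 3 members called (background 51.4%), 1 higher (23.9%) and 2 lower (27.4%), with medians of -0.06 and -0.02. Treated wild-type against untreated knockout hearts also had 3 called (33.2%), 1 higher (16.4%) and 2 lower (16.9%), with medians of -0.09 and 0.01. This last comparison shares its libraries with the other two.

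With scaling to the sum of nuclear genes, the calls over all genes split into 1390 higher and 1065 lower in treated knockout against treated wild-type hearts, where 1023 and 1356 are reported. That scaling gave 2834 and 1669 in treated against untreated knockout hearts, where 2043 and 2345 are reported, and moved the median of all genes there to 0.08. In treated wild-type against untreated knockout hearts it gave 1806 and 1113, where 1399 and 1440 are reported. Groups did not overlap for 3 members between treated knockout and treated wild-type hearts, with Ckb higher (background 20%) and Slc6a8 and Ak3 lower (23.6%). Treated and untreated knockout hearts were apart for Ckb, higher (29.2%), and for Ak1 and Ak3, lower (33.4%). Treated wild-type and untreated knockout hearts were apart for Ckb and Slc6a8, higher (23.4%), and for Ak1 and Ak3, lower (24.1%).

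**Figure D4:**
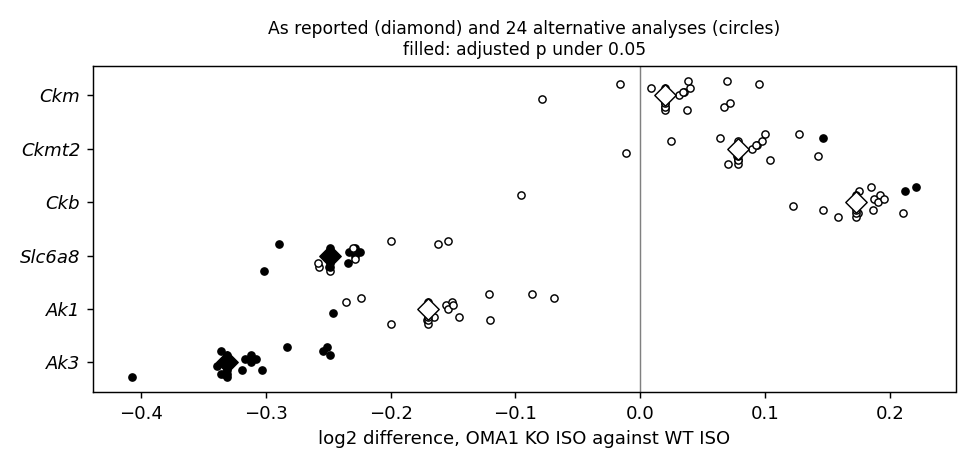
Log2 difference between treated knockout and treated wild-type hearts for the 6 tested genes, as reported (diamonds) and under 24 alternative analyses (circles; filled, adjusted p under 0.05). Ak3 stays filled from -0.41 to -0.25, Slc6a8 is filled or open depending on the analysis, and Ckb has a single value below 0, at -0.10.

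Per kilobase of the principal transcript, Ckmt2 stood at 1151 ± 30.7 in treated knockout, 1094 ± 118 in treated wild-type and 1200.1 ± 58.2 in untreated knockout hearts (SD, n = 3 each). Ckm stood at 529 ± 23.2, 524 ± 59.9 and 539 ± 31.6 with the transcript of 2742 bases, but at 1175, 1163 and 1196 with a shorter annotated one of 1235 bases. The order of Ckmt2 and Ckm therefore depends on the transcript. Ak1 followed at 139 ± 13.8, 156 ± 14.2 and 214 ± 10.8, then Slc6a8 at 43.6 ± 4.81, 51.6 ± 1.21 and 45.3 ± 1.11. Ckb was at 35.5 ± 0.684, 31.5 ± 2.004 and 21.7 ± 0.723, and Ak3 at 31.0 ± 3.37, 38.9 ± 0.580 and 45.8 ± 1.53. Ckb lay above Ak3 in treated knockout hearts and below it in the other groups, and the place of Slc6a8 beside them depends on the transcript too. Over its 4 annotated transcripts Slc6a8 stood at 36.4 to 67.1 in treated knockout, 43.1 to 79.5 in treated wild-type and 37.9 to 69.8 in untreated knockout hearts. Gatm was lowest, at 1.79 ± 0.0395, 1.64 ± 0.394 and 1.67 ± 0.378.

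Of the other adenylate kinases, Ak4 is a matrix enzyme related to Ak3. It was at 29.4 ± 4.63 in treated knockout hearts, against 46.9 ± 2.03 in treated wild-type and 47.8 ± 4.13 in untreated knockout hearts (SD, n = 3 each). It was lower by log2 differences of -0.67 ± 0.11 (adjusted p = 0.0013) and -0.69 ± 0.11 (adjusted p = 0.00015), and both calls held under each of the alternatives run.

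Among other kinases that pass phosphate between nucleotides, 10 were listed and 7 tested. In treated knockout against treated wild-type hearts 2 were higher (background 12%) and 1 lower (15.9%), with a median log2 difference of 0.01. Dtymk, thymidylate kinase, was at 14.5 ± 1.45 in treated knockout and 10.6 ± 0.541 in treated wild-type hearts (0.41 ± 0.10, adjusted p = 0.012; adjusted p = 0.055 without treated knockout replicate 2). Nme2, a nucleoside diphosphate kinase, differed by 0.26 ± 0.07 (adjusted p = 0.018), and by 0.03 with transcript length and GC content corrected for (adjusted p = 0.82). Its adjusted p was 0.053 without treated knockout replicate 1 and 0.0503 without replicate 3. Cmpk1, a kinase of UMP and CMP, was the lower gene (-0.22 ± 0.07, adjusted p = 0.040), and that call was lost under 16 alternatives, among them the omission of any library but treated wild-type replicate 1 (adjusted p = 0.0504 to 0.12). Between the knockout groups 1 was higher (background 23.9%) and 2 lower (27.4%), with a median of 0.00. Cmpk2, a mitochondrial kinase known as interferon-induced, stood at 14.8 ± 0.495 in treated and 9.47 ± 1.94 in untreated knockout hearts (0.61 ± 0.14, adjusted p = 0.0023). Guk1, guanylate kinase, was lower by -0.35 ± 0.08 (adjusted p = 0.0032). Nme6 was lower by -0.37 ± 0.13 (adjusted p = 0.034), a call lost without treated knockout replicate 1 or 2 or any 1 untreated library (adjusted p = 0.060 to 0.13).

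Of 16 genes that handle AMP and adenosine, 15 were listed and 12 tested. In treated knockout against treated wild-type hearts 1 was higher (background 12%) and 4 were lower (15.9%), with a median log2 difference of -0.13. Ampd3, an AMP deaminase, was at 33.4 ± 0.573 in treated knockout and 43.8 ± 3.53 in treated wild-type hearts (-0.38 ± 0.08, adjusted p = 0.0057). Nt5e, the surface enzyme CD73 that turns AMP into adenosine, was at 10.4 ± 0.250 and 13.7 ± 0.277 (-0.37 ± 0.09, adjusted p = 0.011; adjusted p = 0.062 by DESeq2). Nt5c3, a cytosolic nucleotidase, differed by -0.30 ± 0.08 (adjusted p = 0.018), a call lost without treated knockout replicate 2 or 3 or treated wild-type replicate 2 (adjusted p = 0.066, 0.051 and 0.071). The remaining calls were Nt5c2 lower and Ampd2 higher, named after their values were seen. Between the knockout groups 4 were higher (background 23.9%) and 5 lower (27.4%), with a median of 0.05. Adk, adenosine kinase, stood at 73.5 ± 14.3 in treated and 123 ± 7.45 in untreated knockout hearts (-0.75 ± 0.12, adjusted p = 0.00022). Nt5e was lower there by -0.59 ± 0.09 (adjusted p = 0.00016). Adss, an adenylosuccinate synthetase, was higher, at 12.9 ± 1.40 against 7.11 ± 0.890 (0.78 ± 0.12, adjusted p = 0.00019).

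Carriers that exchange ADP and ATP across the mitochondrial membranes, which work beside Ckmt2, were listed for 5 of 6 genes. In treated knockout against treated wild-type hearts limma called 0 of the 5 (background 27.8%), with 2 at an unadjusted p under 0.05, edgeR 1 and DESeq2 2, and the median was -0.07. Slc25a4, the main ADP/ATP carrier of heart, stood at 3409.9 ± 94.3 in treated knockout and 2870.1 ± 413 in treated wild-type hearts (0.26 ± 0.10, adjusted p = 0.069). With nuclear scaling, and under 6 other alternatives, it passed (0.31, adjusted p = 0.019). Vdac1, the main porin of the outer membrane, differed by -0.25 ± 0.09 (adjusted p = 0.059), and with treated wild-type replicate 3 left out by -0.33 (adjusted p = 0.012). Vdac2, another porin, differed by -0.15 ± 0.08 (adjusted p = 0.19). Between the knockout groups Vdac1 was the 1 lower gene (background 27.4%), at 543 ± 60.5 in treated and 688 ± 26.2 in untreated knockout hearts (-0.35 ± 0.09, adjusted p = 0.0071; -0.14 and adjusted p = 0.071 with cyclic loess scaling). Slc25a5 and Vdac3 differed by 0.13 ± 0.07 and -0.15 ± 0.08 (adjusted p = 0.12 and 0.13), and with nuclear scaling Slc25a5 passed (0.24, adjusted p = 0.0046).

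**Figure D5:**
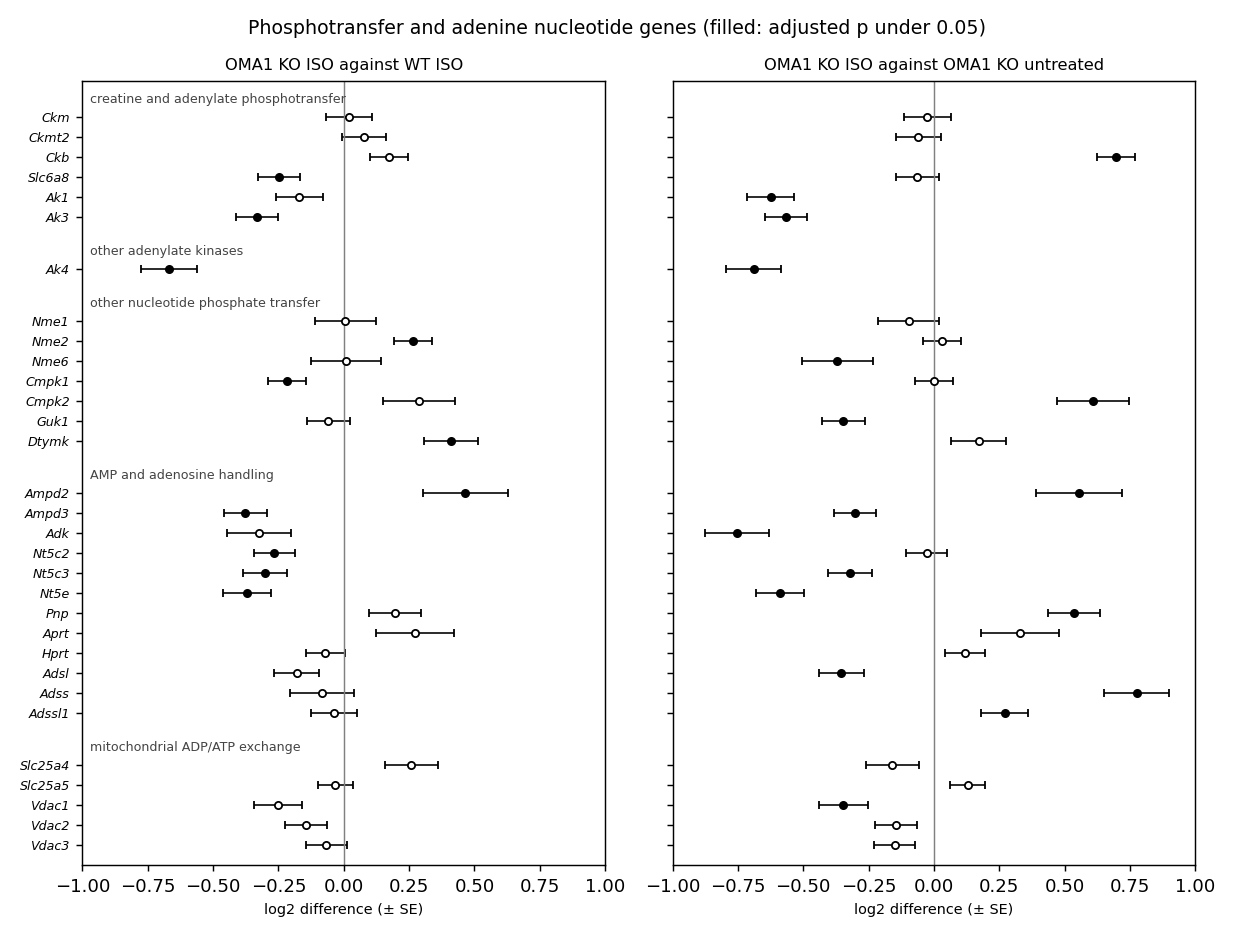
Log2 difference with its SE for tested genes of the phosphotransfer and adenine nucleotide lists, for treated knockout against treated wild-type hearts (left) and against untreated knockout hearts (right) (ISO, isoproterenol; filled points, limma adjusted p under 0.05). Ak4 lies at -0.67 on the left and -0.69 on the right, while Ckm and Ckmt2 lie within 0.08 of 0 in both panels.

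The genes whose levels over the 9 libraries were most like those of each member were found by Pearson correlation of log2 values. The search covered the tested genes without the members, mitochondrially encoded genes and genes with provisional symbols (such as Gm or Rik). All libraries share a scaling, and groups of libraries set much of such a likeness, so the values are descriptive. Ak1 was most like Acadm and Hadha, enzymes of fatty acid β-oxidation, with r = 0.996 for each. For Acadm the means were 585 in treated knockout, 676 in treated wild-type and 992 in untreated knockout hearts. Ak3 was most like Lmbrd1 (r = 0.991) and Prkrir (r = 0.988). Ckb was most like Tspan2, a tetraspanin (r = 0.989), and Plod1, a lysyl hydroxylase of collagen (r = 0.986). Tspan2 averaged 30.3 in treated knockout, 24.2 in treated wild-type and 13.3 in untreated knockout hearts. Slc6a8 was most like Serinc3 and Arih1 (r = 0.966 and 0.962), Ckmt2 like Mrpl55 and Cct7 (r = 0.973 and 0.963) and Ckm like Acyp2 and Slc25a3, the mitochondrial phosphate carrier (r = 0.926 and 0.923). For Gatm, near the limit of detection, Cog1 and Jam3 came closest (r = 0.890 and 0.886).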

How the data were processed

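Per the submitters' processing notes, reads were handled with cutadapt, RSEM 1.17 and limma on GRCm38. No source used here names the aligner or its settings. The deposited signal values are RSEM expected counts that the authors normalized for library size. Divided by the value of a single read in its library, each gave whole reads (100% within 0.02 reads). Values were tested as log2(value + 1) by limma 3.58.1 (R 4.3.3), two-sided, with group means, all 9 libraries sharing the estimate of spread and its trend with the mean level. Ratios within a library were tested by exact permutation (scipy 1.17.1). Gene positions and transcripts came from GENCODE M21, which holds 13385 of the listed IDs. Alternatives were the pseudocount, filter, scaling, form of fit, samples in the fit, replicate block, edgeR 4.0.16 and DESeq2 1.42.0 on the recovered reads, a correction for transcript length and GC content (natural splines of 5 degrees of freedom, 8494 genes) and each library left out in turn. The procedure was tested on simulated reads with a fixed spread and changes set in the treated knockout libraries only. That test concerned the working of the fit and does not check the calls given here. The members and lists were chosen with earlier results of these data known. Named beside the members were Oma1, up to 3 genes of each list with the smallest p in each comparison with treated knockout hearts and the 2 genes most like each member. Cdc37l1 and Gamt were named after their values were seen. Results of 1 listed gene are not reported here. The labels do not say that libraries are separate animals, so p-values measure the spread between these libraries, which may be technical.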

Additional observations from a re-analysis of the deposited data

How the results depend on the processing

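None of 15 processing alternatives and 9 omissions of a library ended the calls of Ckb, Ak1 and Ak3 between the knockout groups or of Ak3 between the treated groups. Without 1 library in turn, 1342 to 2380 genes passed between the treated groups, with 1 or 2 members called. With a minimum of 50, which leaves 2661 genes, 1236, 1765 and 1152 genes passed in the 3 comparisons, and with the length and GC correction 1558 passed between the treated groups. There 1 member passed with no trend, with only the 2 groups compared or with that correction. Cyclic loess scaling called 5 members between the knockout groups. Signs turned for small values. Between the treated groups Ckm ranged from -0.0786 to 0.0721 and Ckmt2 from -0.0111 to 0.142 with 1 library left out, both lowest without treated wild-type replicate 3, and Ckb was -0.0957 with the length and GC correction. Between the knockout groups Ckm was 0.174 with cyclic loess, 0.0835 with nuclear scaling, 0.0043 with the length and GC correction and -0.0731 to 0.0090 with 1 library left out. There Ckmt2 was 0.130 and 0.0487 and Slc6a8 0.0713 and 0.0446 with cyclic loess and nuclear scaling, and Vdac3 was 0.0169 with cyclic loess. With 1 library left out Slc6a8 ranged from -0.1162 to 0.0314 and the log2 ratio of Ak3 to Ak1 from -0.0020 to 0.1145. Between treated wild-type and untreated knockout hearts Ckm was 0.0791 and 0.0143 under these scalings, and 0.0538 at its highest with 1 library left out (treated wild-type replicate 3), against -0.0969 at its lowest. The causes were not tested. With the replicate number as a block, 2258, 4316 and 2755 genes passed against 2379, 4388 and 2839, and no member's call changed, but Cmpk1 lost its call between the treated groups (adjusted p = 0.0573) and Slc25a4 gained one there (adjusted p = 0.042). Same-numbered libraries correlated in their deviations by -0.14 to 0.18, and not every library correlated best with its own number, so the numbers were not taken to pair them. Depth limits Gatm and Gamt, and its effect on other low genes such as Nme6, Nt5e and Dtymk was not tested.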
